A study of Drosophila melanogaster with 20 samples.

Results

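The comparison described here sets Drosophila melanogaster males of the MnSOD transgenic line against males of the control line, both fed without doxycycline (DOX), and was chosen by the array titles alone. It takes 8 of the 20 arrays of the study, 4 labelled MnSOD transgenic line -DOX and 4 labelled Control -DOX, both near 50% survival. MnSOD -DOX flies were sons of the MnSOD(2)22 line and the rtTA(3)E2 transactivator line. Control -DOX flies were sons of the Oregon R strain and the same transactivator line, so both groups carried rtTA, which is made in all tissues. Each RNA sample was a pool of 30 whole adult males. The sample labels give day 73 for both groups, whereas the design text gives day 73 for MnSOD -DOX flies and day 78 for control -DOX flies, so an age difference between the groups cannot be told apart from the line. MnSOD(2)22 was 1 insertion on the second chromosome, made in a recipient strain with the y-, ac- and w1118 alleles. The effects of the insertion and of the parental strain therefore cannot be told apart either, and food without DOX still held ampicillin in both groups. The other 12 arrays were MnSOD flies with DOX at day 73 and at day 83, and control flies with DOX, 4 each.

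Manganese superoxide dismutase, encoded by Sod2, works in the mitochondrial matrix, where it turns superoxide into hydrogen peroxide. In the DOX-regulated system the rtTA protein binds the promoter of the transgene when DOX is present, and without DOX the promoter is meant to be silent. Laboratory strains of the fly differ at many loci, and cytochrome P450 and glutathione S-transferase genes, which help to clear foreign compounds, are familiar examples of genes whose level differs among strains. The humoral immune response of the fly is another system that differs readily between cohorts, because the Imd and Toll pathways switch on antimicrobial peptide genes when bacteria or fungi are sensed.

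All values are log2 expression values, so that a difference of 1 is a doubling, and a positive difference means a higher level in MnSOD flies. A probe set was called when its adjusted p in limma (Benjamini-Hochberg over 14010 probe sets) was under 0.01 and its fold was at least 1.2. The 8 arrays correlated with one another at 0.976 to 0.997, and their bacterial spike-in signal averaged 9.61 to 10.2. The 3' probe sets of 3 control transcripts exceeded their 5' partners by 1.40 to 1.80 in MnSOD -DOX arrays and by 1.96 to 3.35 in control -DOX arrays (exact permutation p = 0.0286, two-sided, the smallest that 4 against 4 arrays allow), with control -DOX replicate 1 the highest. The part of this RNA quality measure in the line difference was not tested. Control arrays labelled +DOX replicates 1 to 3 had a spike-in signal of only 7.98 to 8.41, against 9.69 in replicate 4. The 18S ribosomal RNA probe sets averaged 8.84 in replicate 1 and 5.44 in replicate 3 of that group. On every other array of the study they averaged 3.94 or less. The control line carries no inducible transgene, so no transgene level on the control arrays checks which of them had DOX. For the genes described, the main difference is therefore usually given with the difference of the same 4 MnSOD -DOX arrays from the control arrays labelled +DOX, and the 2 differences share those MnSOD arrays.

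Without DOX, 450 probe sets were higher in MnSOD flies (3.21% of all tested) and 467 were lower (3.33%), together 6.55%. The median size of these differences was 0.48 among the higher and 0.46 among the lower, and 37 and 18 reached 1. Across all probe sets the median difference was -0.006. When the control arrays labelled +DOX took the place of those labelled -DOX, 1276 were higher (9.11%) and 1247 lower (8.9%). Of the first lists, 105 higher (0.749%) and 185 lower probe sets (1.32%) were called in the same direction with either control group, while 28 higher and 1 lower were called in the opposite direction. The count without DOX dropped to 260 higher and 289 lower without MnSOD -DOX replicate 1, to 293 and 308 without replicate 2 and to 295 and 308 without replicate 3. Genes called in the same direction against both control groups are mostly described first, with the other members of their lists.

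Sod2 itself was higher in MnSOD flies even without DOX. It stood at 8.42, 8.36, 8.47 and 8.42 in the MnSOD -DOX arrays, against 7.66, 7.38, 7.56 and 7.67 in the control -DOX arrays. The lowest MnSOD array was well above the highest control array, and the groups did not overlap. The difference was 0.85 ± 0.0941 (SE), a 1.81-fold higher level (limma adjusted p = 1.71e-06, exact permutation p = 0.0286, two-sided). Against the control arrays labelled +DOX, which ranged from 7.59 to 8.14, it was 0.48 (limma adjusted p = 0.0009). Within the control line Sod2 averaged 7.943 in arrays labelled +DOX and 7.565 in those labelled -DOX. The paper states that DOX slightly lowers MnSOD expression, the reverse of this labelled direction. With DOX at day 73 the MnSOD arrays stood at 12.36 to 12.61, so the level without DOX was far nearer to the control than to the induced level. The probe set cannot separate the transcript of the transgene from that of the endogenous gene. The paper reports that Northern blots detected no leaky expression of the transgene without DOX. The flies for those blots had been on their food for a week, whereas the array flies were at day 73 by the labels. Whether the transgene was active without DOX in the array flies was not tested.

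Of 13 genes for the removal of superoxide and peroxide, Sod2 among them, 2 were higher, 1 was lower and 10 were not called, beside 6.55% called of all probe sets. The list median was 0.06 against -0.006 over all probe sets, and 5 members were called without MnSOD +DOX day 83 replicate 1. Besides Sod2, the higher gene was Irc, an immune-regulated catalase, at 0.58, which turned to -0.56 against the control arrays labelled +DOX. Trx2, a thioredoxin, was lower by a difference of -0.33 (limma adjusted p = 0.00831) and by -0.42 against the control arrays labelled +DOX, but its call was lost without any 1 of 10 arrays, among them all 4 MnSOD -DOX arrays and control -DOX replicates 1, 3 and 4 (adjusted p up to 0.0317).

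The largest fall that held against both control groups was that of Cyp12d1-d, a mitochondrial cytochrome P450 known to be induced by foreign compounds. Its level was 4.36, 4.37, 4.24 and 4.28 in MnSOD -DOX arrays, against 8.09, 7.73, 7.71 and 7.51 in control -DOX arrays. Every MnSOD array lay near the low end of the array scale, and every control array lay more than 3 units above it. The fold was 10.9 lower in MnSOD flies, at a log2 difference of -3.45 ± 0.128 (SE, limma adjusted p = 1.53e-14). The difference was -3.89 against the control arrays labelled +DOX. Cyp12d1-d has a near-identical tandem copy, Cyp12d1-p, and the probe set may read both.

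Cyp6w1 and Cyp6a2, P450 genes of another family, also fell with either control group. Cyp6w1 was at 8.0, 8.10, 7.94 and 8.12 in MnSOD -DOX arrays, against 9.03, 9.05, 9.22 and 9.22 in control -DOX arrays. Its difference was -1.09, and it was larger, at -1.81, against the control arrays labelled +DOX. Cyp6a2, an enzyme known to act on insecticides, was at 7.75 to 7.93 in MnSOD -DOX arrays and at 8.46 to 8.99 in control -DOX arrays, a difference of -0.90 with no overlap, and of -1.05 against the control arrays labelled +DOX. Cyp9b2 fell by 0.89 without DOX, but by only 0.33 against the control arrays labelled +DOX, where it was not called. Cyp6a14 ran the other way and was higher by 0.62, and by 0.65 with the other control group. In the whole family of 81 genes measured, 1 was higher, 10 were lower and 70 were not called, with a median of -0.09, and 3 and 18 were called against the control arrays labelled +DOX.

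GstE1, a glutathione S-transferase of the epsilon class, had 1 of the largest rises called with either control group. It reached 10.52, 10.38, 10.61 and 10.31 in MnSOD -DOX arrays, against 8.91, 8.42, 8.19 and 8.36 in control -DOX arrays. The groups lay more than 1 unit apart, a 3.95-fold higher level in MnSOD flies (1.98 ± 0.153 SE, limma adjusted p = 1.22e-08), and the difference was 1.5 against the control arrays labelled +DOX. GstE11 was the only other of 34 transferases to pass the test without DOX, at 0.53, and none fell. Of all probe sets, 6.55% were called without DOX. GstE11 missed the call against the control arrays labelled +DOX, at 0.25, where 1 transferase was higher and 9 were lower. The 2 calls became 5 when MnSOD +DOX day 83 replicate 1 was left out, and 4 when control +DOX replicate 4 was. Among 33 UDP-glycosyltransferases, which attach sugars to small molecules, 2 fell and 31 were not called, beside 6.55% called of all probe sets. Ugt37A2 was 1 of those that fell, at -1.01, and its difference was -0.04 against the control arrays labelled +DOX. The 2 calls became 1 without any 1 of MnSOD -DOX replicates 1, 3 and 4 or control -DOX replicates 2 and 4, and 4 without control +DOX replicate 4.

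**Figure D1:**
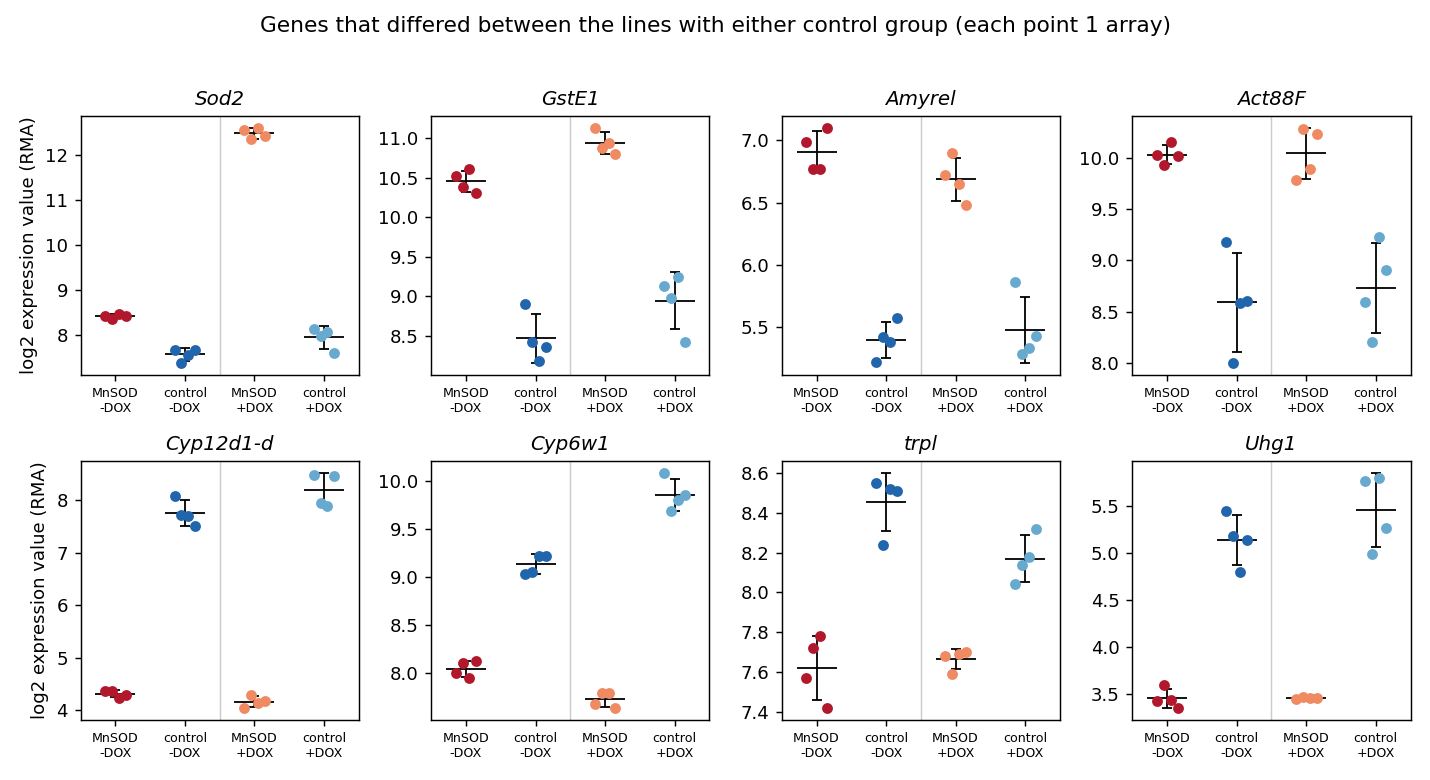
Log2 expression value (RMA, vertical axis) of 8 genes in MnSOD -DOX, control -DOX, MnSOD +DOX (day 73) and control +DOX arrays; each point is 1 array, and black bars give the mean and SD of 4 arrays. GstE1, Amyrel and Act88F sit higher, and Cyp12d1-d, Cyp6w1, trpl and Uhg1 lower, in both MnSOD groups than in both control groups, whereas Sod2 lies near 8.42 without DOX and above 12 with it.

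Genes of digestive enzymes changed in both directions, and several were called with either control group. Amyrel, an amylase-related gene, was at 6.99, 6.77, 6.77 and 7.10 in MnSOD -DOX arrays, against 5.22, 5.42, 5.38 and 5.57 in control -DOX arrays. All MnSOD arrays exceeded all control arrays by over 1 unit (1.51 ± 0.131 SE), and the difference was 1.43 against the control arrays labelled +DOX. Jon25Bii and Jon25Bi, neighbouring genes for serine proteases of the midgut, were higher by 1.58 and 1.38, and by 1.70 and 1.56 with the other control group. Jon25Bii ranged from 7.99 to 8.95 in MnSOD -DOX arrays and from 6.79 to 7.12 in control -DOX arrays. CG18180, a predicted serine protease, was higher by 0.91, and by 0.83 with the other control group.

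The gut protease yip7 was at a difference of -0.99, or -0.60 with the other control group, with 11.33 to 11.51 in MnSOD -DOX arrays and 12.24 to 12.66 in control -DOX arrays. alphaTry, a midgut trypsin, fell by 0.71, or 0.31 with the other control group, and its near copies in the same cluster may share its signal. Jon74E fell by 0.58 without DOX and was at 0.19 against the control arrays labelled +DOX. Of the 21 Jonah proteases and trypsins measured, a list without CG18180 and yip7, 3 rose and 3 fell, with a median of -0.03. betaTry, the third that rose, was called with either control group, but its MnSOD -DOX and control -DOX arrays overlapped. Against the control arrays labelled +DOX 7 of the list rose and 1 fell.

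Of 14 genes for starch and sugar digestion, 5 rose and 1 fell. Apart from Amyrel, the higher ones were members of the maltase cluster on arm 2R, of which Mal-A4 was at 0.55, and at 0.01 against the control arrays labelled +DOX. The 6 calls became 3 without any 1 of the 4 MnSOD -DOX arrays or without control -DOX replicate 2. tobi, an alpha-glucosidase regulated by insulin, fell by 0.65 and by 0.64 with the other control group. Pepck1 and Pepck2, neighbouring genes for the enzyme that opens gluconeogenesis, both fell. Pepck2 fell by 0.87 and by 0.94 with the other control group, with 5.19 to 5.43 in MnSOD -DOX arrays and 6.0 to 6.35 in control -DOX arrays. Pepck1 fell by 0.66 and missed the call with the other control group.

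Of 20 muscle genes 4 were higher in MnSOD flies. Act88F, the actin of the indirect flight muscle, was at 10.03, 9.93, 10.15 and 10.02 in MnSOD -DOX arrays, against 9.18, 8.0, 8.58 and 8.60 in control -DOX arrays. The control arrays spread over more than 1 unit, yet none reached the lowest MnSOD array (1.44 ± 0.196 SE, limma adjusted p = 2.77e-05). TpnC4, the troponin C of the same muscle, was higher by 1.10, at 5.56 to 5.73 in MnSOD -DOX arrays and 4.17 to 4.82 in control -DOX arrays. Mlp60A, a muscle LIM protein, was higher by 0.63. These 3 differences were 1.30, 1.01 and 0.53 against the control arrays labelled +DOX. Without control -DOX replicate 1, which had the largest 3' over 5' difference, Act88F was higher by 1.64 and TpnC4 by 1.10. In whole flies, fewer cells of a type and less RNA per cell cannot be told apart, here and in the groups that follow.

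The fourth muscle gene called, sls, encodes a very large titin-like protein, and it behaved differently. It was at 8.05, 8.02, 7.99 and 7.86 in MnSOD -DOX arrays, against 6.44, 7.05, 7.49 and 7.29 in control -DOX arrays, the lowest being control -DOX replicate 1. The difference was 0.91, 0.70 without that array, and 0.02 against the control arrays labelled +DOX, and none of the 3 other probe sets of sls was called. Over the whole list none fell and 16 were not called, with a median of 0.26 in limma, where 12 passed an unadjusted p under 0.05, as did 29.3% of all probe sets. The 6 muscle markers averaged 8.37 to 8.54 in MnSOD -DOX arrays and 7.73 to 8.04 in control -DOX arrays.

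Of 16 phototransduction genes 3 were lower in MnSOD flies, 1 was higher and 12 were not called, with a median of -0.07. trpl, a cation channel opened by light, was at 7.57, 7.72, 7.78 and 7.42 in MnSOD -DOX arrays, against 8.55, 8.24, 8.52 and 8.51 in control -DOX arrays. Control -DOX replicate 2 was the lowest of its group, but the groups did not overlap, and the difference was -0.84 (limma adjusted p = 2.74e-07), or -0.55 against the control arrays labelled +DOX. Arr2, the main arrestin of the eye, fell by 0.54 and Gbeta76C, the eye form of the G protein beta subunit, fell by 0.51, and with the other control group Arr2 fell by 0.57 and Gbeta76C by 0.69. rdgB, a phosphatidylinositol transfer protein, was the 1 member that rose, at 0.34 (limma adjusted p = 0.00808), and it lost the call without any 1 of 10 arrays, 7 of them in the compared groups (adjusted p up to 0.0371), and in a fit of the 8 arrays alone. The 4 eye markers, of which 1 fell, averaged 8.34 to 8.65 in MnSOD -DOX arrays and 8.67 to 8.79 in control -DOX arrays.

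The remaining genes with large differences against both control groups did not belong to 1 system. Uhg1, a host gene of small nucleolar RNAs, was at 3.43, 3.59, 3.44 and 3.35 in MnSOD -DOX arrays, against 5.45, 5.18, 4.80 and 5.14 in control -DOX arrays. The MnSOD values lay at the low end of the scale (-1.69 ± 0.138 SE), and the difference was -2.0 against the control arrays labelled +DOX. lncRNA:CR9284, a long non-coding RNA, fell by 1.2 and tHMG2, a testis HMG-box protein gene, fell by 1.06, and with the other control group they fell by 1.48 and 0.79. Spn47C, a serpin gene, fell by 0.85 and CG3857 by 0.90, and they fell by 1.08 and 0.48 with the other control group. CG16704 and CG12780, known here by number only, rose by 1.2 and 0.83, and by 0.99 and 0.59 with the other control group. CG13947 also rose with either control group, but by different amounts. It was at 12.25, 11.94, 12.21 and 12.77 in MnSOD -DOX arrays, against 9.19, 9.97, 9.05 and 8.76 in control -DOX arrays. Its difference was 3.05 without DOX and 1.30 against the control arrays labelled +DOX (limma adjusted p = 0.000257), and another probe set of the gene was higher by 2.66 without DOX.

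Of 23 neuropeptide genes 1 rose, 2 fell and 20 were not called, with a median of -0.06, beside 6.55% called of all probe sets. With single arrays left out, 1 to 6 of them were called. The gene that rose, Burs, was called higher with either control group. Akh, the adipokinetic hormone that mobilises fat and sugar stores, was at 7.92 to 8.01 in MnSOD -DOX arrays and 8.21 to 8.44 in control -DOX arrays. The groups did not overlap, which held in this direction for 10.5% of all probe sets, and Akh fell by 0.36 with either control group. AstC, the other gene of the list that fell, was not called with the other control group. Lst, which is not in this list, encodes limostatin, a hormone that restrains insulin release. It fell by 1.08 and by 0.98 with the other control group. Its MnSOD -DOX values were 7.24, 8.07, 7.77 and 7.31, all below the 8.43 to 8.78 of control -DOX arrays. CG15263 fell by 1.90, at 5.25 to 5.73 in MnSOD -DOX arrays and 7.36 to 7.62 in control -DOX arrays, and by 1.06 against the control arrays labelled +DOX. The genes y and ac, with alleles named in the recipient strain, and sc did not pass the test. They were at -0.22, -0.13 and 0.17, with adjusted p-values of 0.0615, 0.476 and 0.225 in limma. Against the control arrays labelled +DOX they were at 0.23, 0.14 and 0.31, not called. With DOX, sc was called at 0.35. All 3 lie on the X chromosome, whose parent of origin is not given for these arrays, so their values do not bear on the recipient strain.

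Antimicrobial peptide genes were among the largest rises without DOX, and those called turned in sign with the other control group. DptB, a diptericin gene of the Imd pathway, was at 12.47, 12.15, 12.57 and 12.23 in MnSOD -DOX arrays, against 8.65, 8.84, 8.32 and 8.63 in control -DOX arrays. The groups lay more than 3 units apart, a 13.4-fold higher level in MnSOD flies (3.74 ± 0.315 SE, limma adjusted p = 3.21e-08). The control arrays labelled +DOX, however, were at 12.72 to 12.90, slightly above the MnSOD -DOX arrays, and against them the difference was -0.47 (limma adjusted p = 0.239). In the MnSOD arrays with DOX at day 73 DptB was at 8.68 to 11.27. The label +DOX therefore went with a lower mean in the MnSOD line at day 73 (9.81 with DOX and 12.35 without) and with a higher mean in the control line (12.83 with DOX and 8.61 without). The paper reports that DOX itself strongly lowered the expression of immune response genes, the reverse of the labelled direction in the control line.

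Mtk, the gene of metchnikowin, followed the same pattern. It was at 13.00, 12.72, 12.88 and 12.78 in MnSOD -DOX arrays, against 10.00, 9.85, 9.03 and 9.56 in control -DOX arrays, and at 12.87 to 13.23 in the control arrays labelled +DOX. Def and Drs, for defensin and drosomycin, were higher by 2.77 and 1.69 and were at -0.51 and -0.49 with the other control group. AttD, an attacin, was higher by 0.76 and turned to -1.26, a fall that passed the test. Of 9 peptide genes with a probe set of their own, 5 rose, none fell and 4 were not called, with a median of 0.76, and 6 passed an unadjusted p under 0.05 in limma, beside 29.3% of all probe sets. Against the control arrays labelled +DOX 1 rose and 2 fell, with a median of -0.47. The largest difference on the array, 5.10, belonged to a probe set that the annotation ties to no single gene, and it is not named here.

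Of 9 recognition genes for bacterial cell wall and glucan 3 were higher in MnSOD flies, none was lower and 6 were not called, with a median of 0.15. PGRP-SB1, a secreted peptidoglycan recognition protein, was at 10.89, 10.85, 10.97 and 10.84 in MnSOD -DOX arrays, against 8.85, 8.52, 8.44 and 8.66 in control -DOX arrays. The spread within each group was small beside the difference of 2.28 ± 0.149 (SE), which turned to -0.76 against the control arrays labelled +DOX and passed the test there. PGRP-SC2 and PGRP-LB, which degrade peptidoglycan and dampen the Imd response, were higher by 0.84 and 0.68 and were at -0.35 and -0.90 with the other control group. Listericin, an antibacterial protein gene, was higher by 1.38 and at -0.83 with the other control group.

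The components of the Toll and Imd pathways themselves did not pass the test. Of 22 measured, none was called in limma without DOX, 7 passed an unadjusted p under 0.05 (29.3% of all probe sets did), the median was 0.04, and 1 was called without MnSOD +DOX day 83 replicate 1. Against the control arrays labelled +DOX 8 fell and none rose. The Bomanins and other immune-induced peptides ran partly the other way. Of 10, Listericin rose and 3 fell. BomS2 was 1 of those that fell, with a difference of -0.68 and no overlap, and of -1.01 against the control arrays labelled +DOX. The 4 calls became 2 without any 1 of MnSOD -DOX replicates 1, 3 and 4 or control -DOX replicates 1 and 4. The 7 hemocyte markers, of which 1 rose, averaged 6.61 to 6.70 in MnSOD -DOX arrays and 6.55 to 6.62 in control -DOX arrays.

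**Figure D2:**
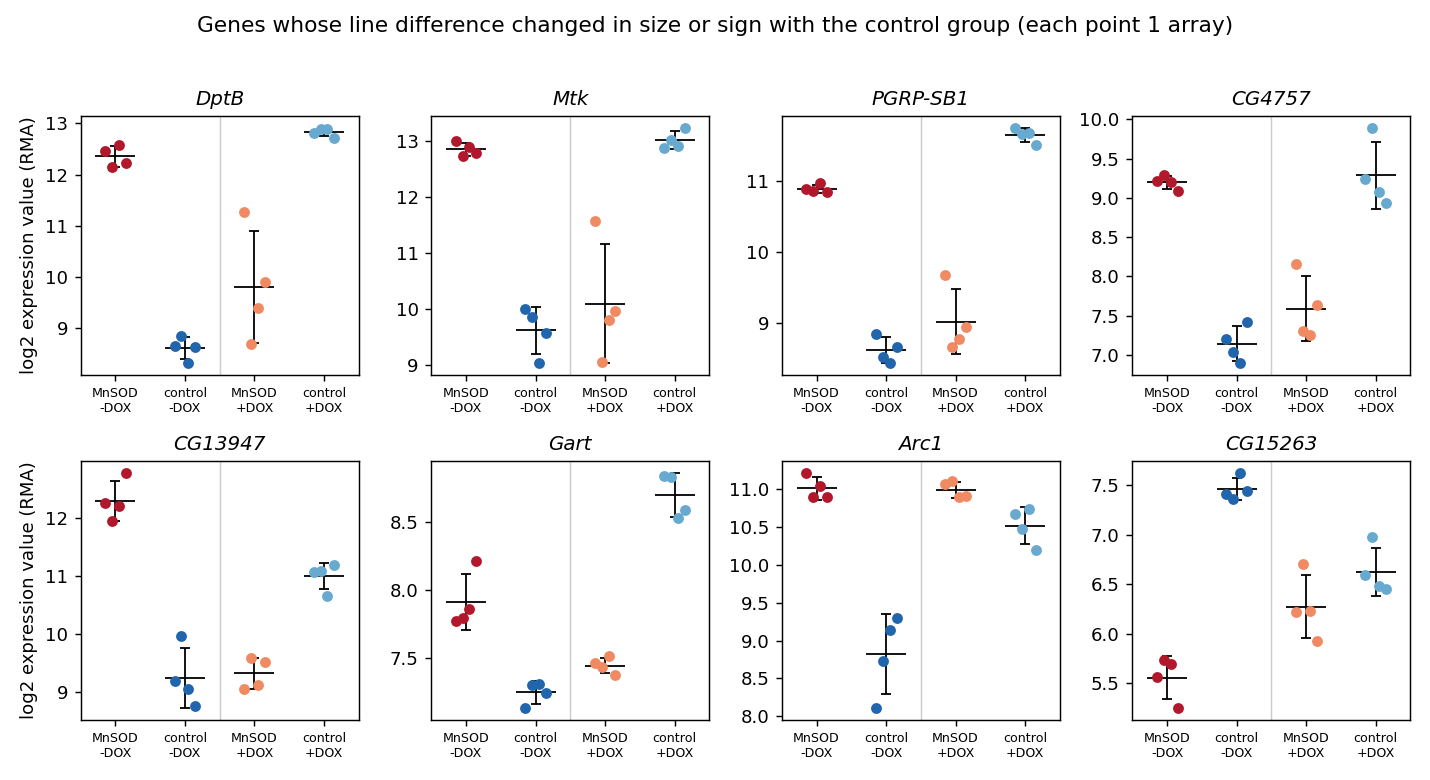
Log2 expression value (RMA, vertical axis) of 8 genes in MnSOD -DOX, control -DOX, MnSOD +DOX (day 73) and control +DOX arrays; each point is 1 array, and black bars give the mean and SD of 4 arrays. DptB, Mtk, PGRP-SB1 and CG4757 are high in MnSOD -DOX and control +DOX arrays, CG13947 is highest in MnSOD -DOX arrays and Gart in control +DOX arrays, and for Arc1 and CG15263 the control -DOX arrays lie apart from the others.

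CG4757, known here by number only, was higher by 2.05 and at -0.09 with the other control group. Obp56a, an odorant binding protein gene, was higher by 1.45 and at -0.19.

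Arc1, whose protein forms virus-like capsids that carry RNA between cells, had its own pattern. It was at 11.21, 10.90, 11.04 and 10.89 in MnSOD -DOX arrays, against 8.11, 8.73, 9.14 and 9.30 in control -DOX arrays. The control arrays labelled +DOX were at 10.19 to 10.73 and the MnSOD arrays with DOX at day 73 at 10.89 to 11.10, so the control -DOX arrays alone were low. The difference was 2.19 without DOX, 1.95 without control -DOX replicate 1, and 0.49 against the control arrays labelled +DOX, which missed the call. CG14742 and CG16824 fell by 1.56 and 1.17 and were at 0.12 and -0.08 with the other control group, and mag, a lipase of the gut, fell by 1.17 and was at -0.43.

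Of 14 enzymes of purine and folate synthesis 5 were higher in MnSOD flies without DOX, and 8 were lower against the other control group. Gart, which carries out several steps of purine synthesis, was at 7.77, 7.79, 7.86 and 8.21 in MnSOD -DOX arrays, against 7.13, 7.30, 7.31 and 7.24 in control -DOX arrays. The control arrays labelled +DOX lay above both groups, at 8.53 to 8.84. The difference was 0.66 without DOX and -0.79 with the other control group, and both passed the test. pug and Shmt, enzymes that load one-carbon units onto folate, were higher by 0.67 and 0.42, and Adsl and Adss, which lead to AMP, by 0.61 and 0.41. Shmt lost the call without MnSOD -DOX replicate 1 or 4 (limma adjusted p = 0.011 and 0.0107). None of the 14 fell and 9 were not called without DOX, with a median of 0.35, whereas none rose against the control arrays labelled +DOX, with a median of -0.40. Pu, the GTP cyclohydrolase that begins pteridine synthesis, was higher by 1.05 and Ddc, the dopa decarboxylase, by 0.79, and they were at -0.31 and -0.28 with the other control group.

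Of 29 spermatid and testis genes 11 were lower in MnSOD flies without DOX, none was higher and 18 were not called, with a median of -0.38. Mst84Dc, a protein gene of the sperm tail, was at 10.41, 10.36, 10.43 and 10.63 in MnSOD -DOX arrays, against 11.85, 11.63, 11.56 and 11.60 in control -DOX arrays. It fell by 1.2 ± 0.108 (SE, limma adjusted p = 7.71e-08), and by 0.58 with the other control group. Its neighbours Mst84Da and Mst84Db fell by 0.70 and 0.58 and were not called with the other control group, and these similar genes of 1 cluster may share signal. Mst98Cb fell by 0.71, and by 0.44 with the other control group. Against the control arrays labelled +DOX 10 of the list fell and none rose, with a median of -0.18. The 11 testis markers averaged 9.21 to 9.47 in MnSOD -DOX arrays and 9.77 to 10.05 in control -DOX arrays, and 7 of them fell.

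Of 39 genes of complexes II to IV and ATP synthase, none rose and 4 fell, with a median of -0.13, and COX4L and COX7AL, at -0.66 and -0.45, are paralogs of the usual subunits. With the other control group COX4L fell by 0.53 and COX7AL, at -0.18, was not called. Of 31 complex I genes 1 rose and none fell, which became 0 calls without MnSOD -DOX replicates 1, 2 or 4 or control -DOX replicate 3, 3 without MnSOD +DOX day 83 replicate 1 or control +DOX replicate 4, and 2 without day 83 replicate 3. Of 14 accessory gland genes 4 were higher in MnSOD flies, none was lower and 10 were not called, with a median of 0.05. Acp26Aa, Acp63F and Acp62F, which encode seminal fluid proteins, rose by 0.76, 0.74 and 0.64. Acp62F alone of these 3 was also called with the other control group, at 0.53. The 10 accessory gland markers averaged 7.93 to 8.11 in MnSOD -DOX arrays and 7.71 to 7.91 in control -DOX arrays.

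**Figure D3:**
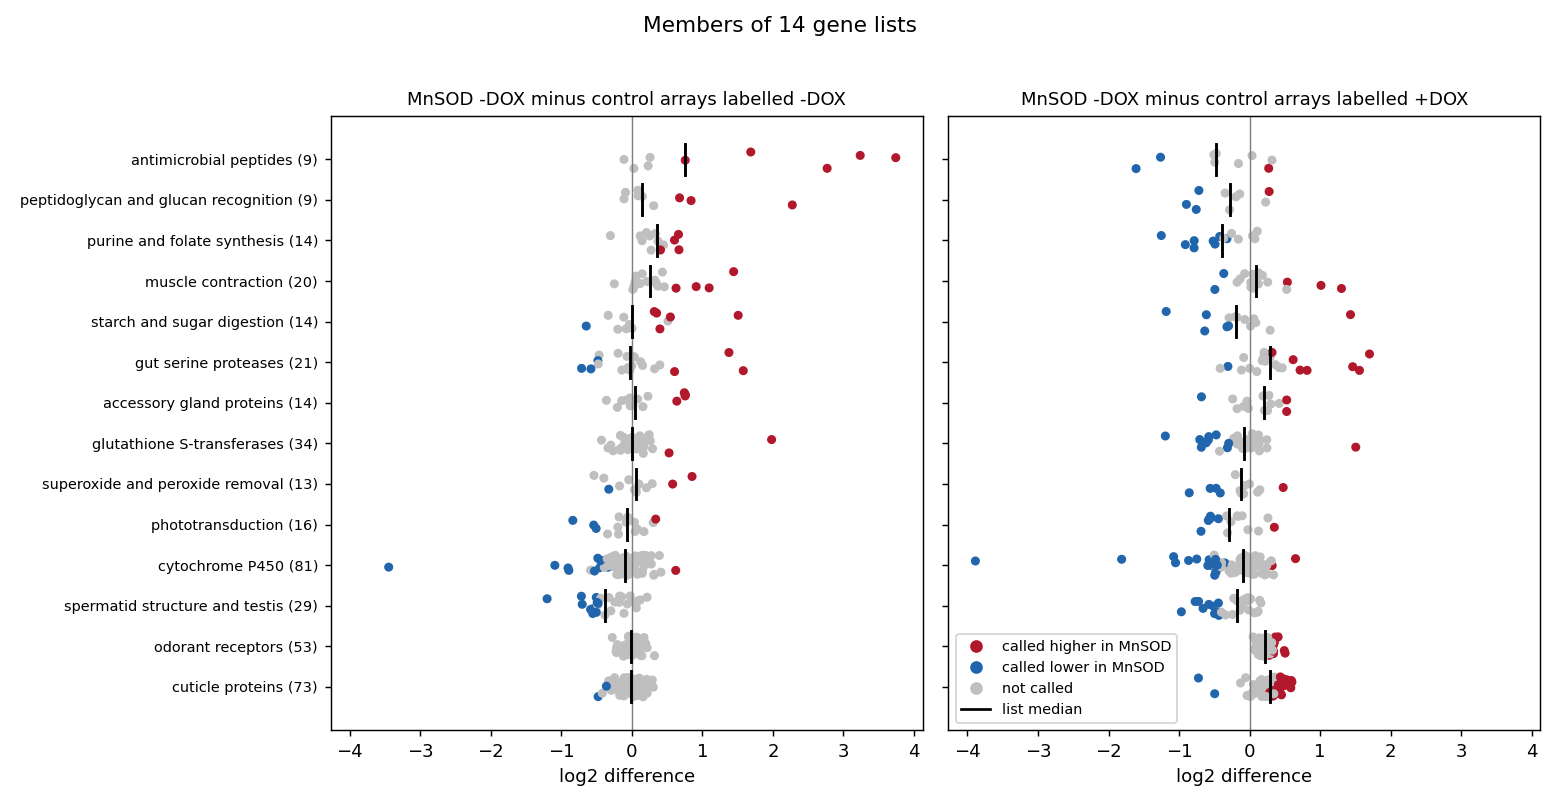
Log2 difference of each member of 14 gene lists, for MnSOD -DOX minus control arrays labelled -DOX on the left and minus control arrays labelled +DOX on the right; each point is 1 gene, coloured by its call, and the black line is the list median. The median of the antimicrobial peptides is 0.76 on the left and -0.47 on the right, and that of the spermatid genes is -0.38 and -0.18.

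Several groups of genes had no call without DOX. None of 53 odorant receptors, 16 yolk and eggshell genes, 15 Hsp70 and Hsp90 related chaperones, 3 small heat shock proteins or 11 clock genes passed the test in limma, while 10, 2, 4, 0 and 4 of them had a p under 0.05 before adjustment, beside 29.3% of all probe sets. With single arrays left out, the clock genes, odorant receptors and chaperones reached at most 1 call each and the other 2 lists 0. With the control arrays labelled +DOX, 10 odorant receptors and 7 yolk and eggshell genes were higher and 6 of the chaperones were lower. Of 73 cuticle protein genes 2 fell and none rose without DOX, but 26 rose and 2 fell with the other control group. The 2 calls without DOX became 0 without any 1 of MnSOD -DOX replicates 1 to 3 or control -DOX replicate 3, and 1 without MnSOD -DOX replicate 4 or control -DOX replicates 1, 2 or 4. The female germline and eggshell markers averaged 6.32 to 6.37 in MnSOD -DOX arrays and 6.26 to 6.4 in control -DOX arrays.

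Called genes lay on every major arm, counted with 1 probe set per gene and placed by the RefSeq annotation of Drosophila melanogaster Release 6. On arm 2R, 8.69% of 2176 genes were called and 16 had a difference of at least 1. On 2L it was 7.44% of 1976 genes, on 3L 6.83% of 2107 and on 3R 6.69% of 2720. The X chromosome had 5.45% of 1763 genes called and 1 difference of at least 1. Without MnSOD -DOX replicate 1 the calls dropped to 51 genes on the X chromosome, 97 on 2L, 115 on 2R, 84 on 3L and 106 on 3R, against 96, 147, 189, 144 and 182 with all arrays. They dropped to 52, 54 and 62 on the X chromosome without replicates 2, 3 and 4, to 92 and 95 on 3L without replicates 2 and 3, and to 114 on 3R without replicate 3. Calls in the same direction with either control group came to 1.08% on the X chromosome, against 2.99% on 2R, 2.78% on 2L, 2.42% on 3L and 1.84% on 3R. Sons take their X chromosome from the mother, and the sources used here do not give, for these arrays, which parent came from the transactivator line. For its assay of the timing of induction, the paper crossed virgins of the rtTA(3)E2 line with MnSOD males. Of 759 called genes with a position, 100 (13.2%) had an adjacent gene among those on the array, on either side, called in the same direction, in 53 pairs, and Jon25Bii with Jon25Bi, Pepck2 with Pepck1, and the Mst84D cluster were among these neighbours. The share for randomly placed calls was not computed, so this count does not show whether called genes lie together.

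**Figure D4:**
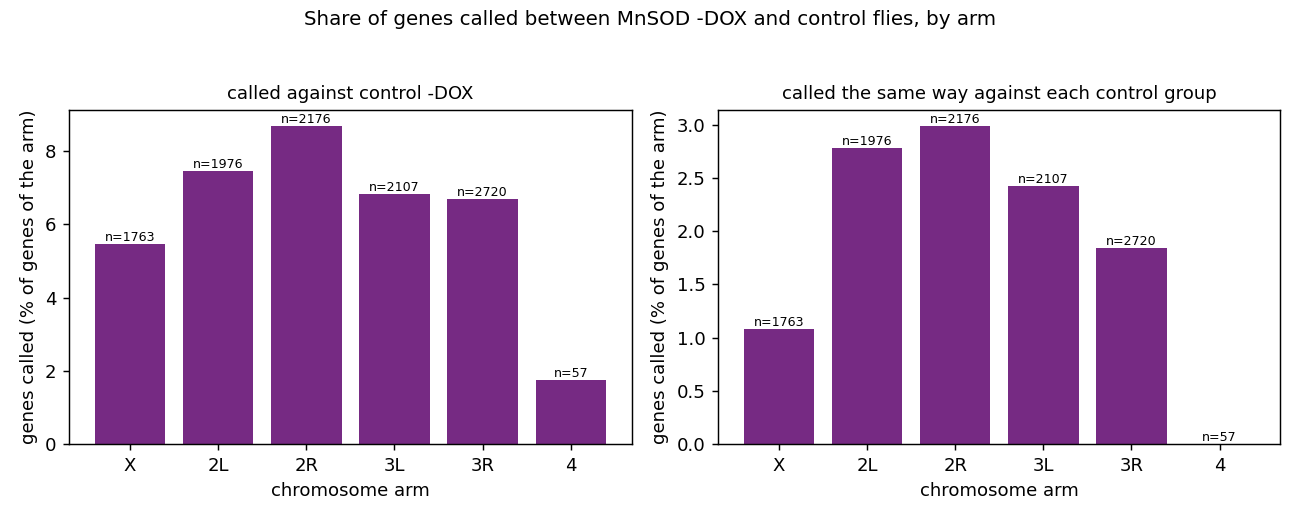
Share of the genes of each chromosome arm (in percent, with the number of genes above each bar) that were called between MnSOD -DOX and control -DOX flies on the left, and in the same direction against each control group on the right. On the right the X chromosome is at 1.08% and 2R at 2.99%.

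The arrays of flies fed DOX gave a second line difference that shares no array with the first. With DOX at day 73, 751 probe sets were higher (5.36%) and 939 lower (6.7%) in MnSOD than in control flies by the labels, or 354 and 1412 with each array centred on its median. Without control +DOX replicates 1 to 3, the arrays of low spike-in signal, 42 higher and 100 lower were called, but this leaves 1 array in that group, assumed to vary like the other groups. With single arrays left out the count ranged from 265 higher and 523 lower without control +DOX replicate 1 to 1761 and 1454 without control +DOX replicate 4. Of the 450 probe sets higher without DOX, 83 were also higher with DOX (18.4% of that list and 11.1% of the second) and 93 were lower. Of the 467 lower without DOX, 91 were also lower with DOX (19.5% and 9.69%) and 17 were higher. Across the 14010 probe sets the 2 differences correlated at -0.114, a description only, since probe sets are not independent replicates. With the control groups exchanged, 359 were higher with DOX (2.56%) and 327 lower (2.33%), together 4.9%. With them exchanged in both differences, 69 of the 1276 higher probe sets were also higher (5.41% of that list and 19.2% of the second) and 8 were lower, 98 of the 1247 lower were also lower (7.86% and 30%) and 10 were higher, and the correlation was 0.024.

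Several genes called with either control group had like values with DOX. Those calls already used the control arrays labelled +DOX, which also enter the difference with DOX, so the likeness is partly built in. GstE1 was higher by 1.98 without DOX and by 1.99 with it, Act88F by 1.44 and 1.31, TpnC4 by 1.10 and 1.09, and Amyrel by 1.51 and 1.21. Cyp12d1-d was at -3.45 without DOX and -4.04 with it, Uhg1 at -1.69 and -2.0, Pepck2 at -0.87 and -0.88, and Arr2 at -0.54 and -0.49. Others did not, with CG15263 at -1.90 without DOX and -0.35 with it, and Lst at -1.08 and -0.20, neither called with DOX. For Sod2, the line difference was 0.85 without DOX and 4.55 with it. DptB, Mtk and PGRP-SB1 took opposite signs, with DptB at 3.74 without DOX and -3.02 with it, Mtk at 3.24 and -2.91, and PGRP-SB1 at 2.28 and -2.63. Over all 12 MnSOD and all 8 control arrays, 21 probe sets (0.15%) were higher in every MnSOD array and 72 (0.514%) were lower in every MnSOD array, and Sod2, GstE1, Amyrel, Act88F, TpnC4, Cyp12d1-d, Cyp6w1, Uhg1, trpl and Arr2 were among these. The named genes were picked on some of these same arrays.

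**Figure D5:**
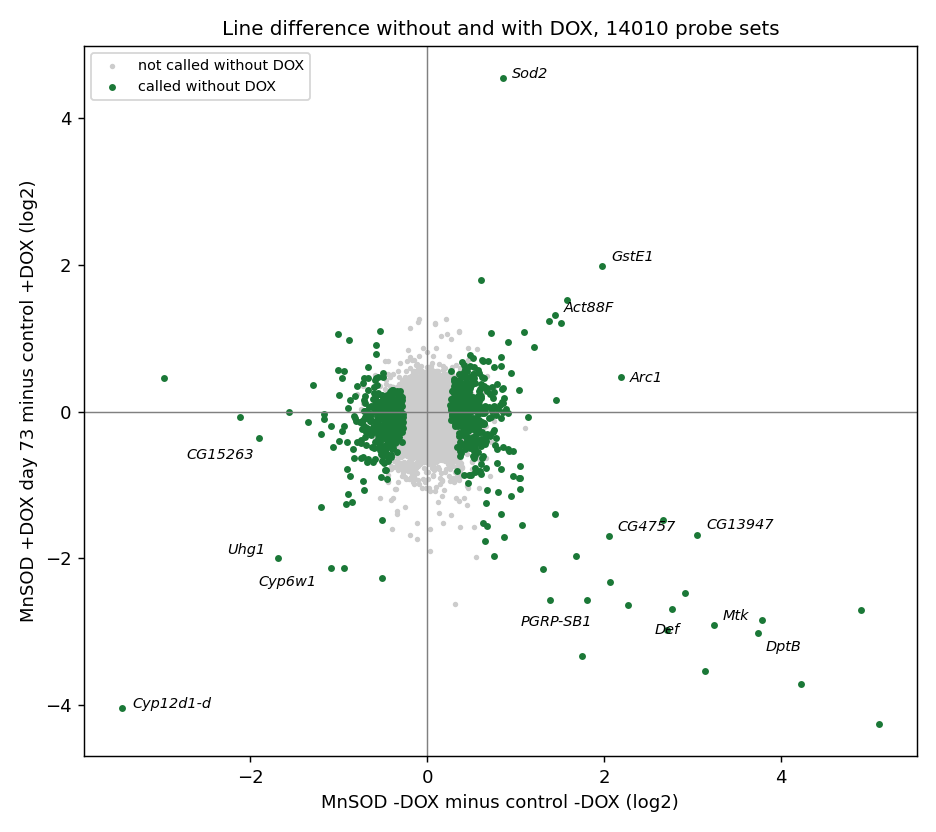
Log2 difference between the lines without DOX (horizontal axis) and with DOX at day 73 (vertical axis) for 14010 probe sets, with probe sets called without DOX in green. GstE1 and Act88F at upper right and Cyp12d1-d and Uhg1 at lower left keep their sign, Sod2 lies at 0.85 and 4.55, and DptB, Mtk, Def and PGRP-SB1 lie at lower right with opposite signs. Both axes take the DOX labels of the control arrays as given.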

How the data were processed

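The authors hybridised whole-fly RNA to Affymetrix DrosGenome1 arrays and deposited 1 table of log2 expression values (RMA, run in the affy package; version: not given in the sources used here) for 14010 probe sets and 20 arrays. RMA corrects background, normalizes between arrays and summarises probes, so the number of arrays, not a read depth, limits precision. Groups came from the sample labels. Per the study's methods, limma (version 3.58.1 in R 4.3.3) was fitted on all 20 arrays with a mean for each of 5 groups, and calls needed a fold of 1.2 or more besides a Benjamini-Hochberg adjusted p below 0.01. Replicates are named biological in the labels, without word of separate cultures, and the p-values therefore cover the spread among these arrays, which may be technical. The platform annotation gave 12444 probe sets 1 gene, 327 several and 1239 none, and 12394 were matched to RefSeq. A gene was represented by its probe set with the highest mean. Genes were named by rule: the 15 largest rises and falls called with either control group, the 10 largest of each among all calls, at most 5 of the called genes in every gene list, and also Sod2, y, w, ac and sc, of which w was not analysed here. The members and lists were chosen with earlier results of these data known, and the control group used, normalization, filter, variance model, block, thresholds and left-out arrays were varied. The limma script was tested on simulated data. Figures were drawn with matplotlib 3.10.9.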

Additional observations from a re-analysis of the deposited data

Results flagged for a closer look

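Some genes had every MnSOD -DOX array on one side of the control -DOX arrays and every MnSOD +DOX array at day 73 on the other side of the control +DOX arrays. They were picked for that separation on these same arrays, so their values are a description, and the difference was not tested on other arrays. The directions take the DOX labels of the control arrays as given. By these labels, the gap between the 2 line differences was called for all 23 genes listed below, and for 6% of all probe sets. Picking genes by that separation makes such a call likely, so the count is no support. With the control groups exchanged, the gap was called in the same direction for 1, in the opposite direction for 10, and not called for 12. It was then called for 9.26% of all probe sets. The line differences without and with DOX were 3.74 and -3.02 for DptB, 3.24 and -2.91 for Mtk, 2.77 and -2.69 for Def, 1.69 and -1.97 for Drs, and 0.76 and -1.97 for AttD. They were 2.28 and -2.63 for PGRP-SB1, 0.84 and -1.40 for PGRP-SC2, 0.68 and -1.55 for PGRP-LB, 1.38 and -2.57 for Listericin, and 0.58 and -0.80 for Irc. For purine, folate and pteridine enzymes they were 0.67 and -0.77 for pug, 0.66 and -1.25 for Gart, 0.61 and -0.47 for Adsl, 0.42 and -0.87 for Shmt, 0.41 and -0.21 for Adss, 1.05 and -0.91 for Pu, and 0.79 and -0.51 for Ddc. CG13947 was at 3.05 and -1.68, CG4757 at 2.05 and -1.70, Obp56a at 1.45 and -1.39, and Mal-A4 at 0.55 and -0.49. Jon74E and Ugt37A2 ran the other way, at -0.58 and 0.90, and at -1.01 and 0.57.

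A few values stood apart from the other 3 arrays of their group by Dixon's ratio, which chance does for a small share of groups. In MnSOD -DOX replicate 1, Acp63F was lowest at 9.60, below the next array at 9.73. In control -DOX replicate 2, trpl was lowest at 8.24, below the next array at 8.51. In control -DOX replicate 1, Lst was lowest at 8.43, below the next array at 8.76.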

How the results depend on the processing

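Sod2 stayed higher in MnSOD flies and past the threshold under every alternative, with a difference of 0.48 (control groups exchanged) to 0.87 and of 0.79 to 0.89 with each array left out, apart from the demand for a fold of at least 2, which its 0.85 does not reach. The count of probe sets without DOX was 1276 higher and 1247 lower with the control groups exchanged, 734 and 802 with array weights, 890 and 915 at an adjusted p under 0.05, 137 and 100 at a fold of at least 1.5, and 37 and 18 at a fold of at least 2. It ranged from 260 to 633 higher and from 289 to 626 lower with each array left out, and was lowest without MnSOD -DOX replicate 1 (260 and 289), replicate 2 (293 and 308) and replicate 3 (295 and 308). Fewer arrays were compared in these fits, and the cause of the other changes was not tested.

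With the control groups exchanged the sign turned for DptB (-0.47), Mtk (-0.16), Def (-0.51), Drs (-0.49), AttD (-1.26), PGRP-SB1 (-0.76), PGRP-SC2 (-0.35), PGRP-LB (-0.90), Listericin (-0.83), Irc (-0.56), CG4757 (-0.09), Obp56a (-0.19), Pu (-0.31), Ddc (-0.28), pug (-0.42), Gart (-0.79), Adsl (-0.32), Shmt (-0.49), Adss (-0.26), Jon74E (0.19) and CG14742 (0.12), and for ac (0.14) and y (0.23), which were not called. Against the mean of both control groups it turned for AttD (-0.25), PGRP-LB (-0.11), Gart (-0.06), Shmt (-0.04), ac (0.0) and y (0.01). Of 72 called genes with printed values, 36 kept the call with the control groups exchanged, 15 lost it and 21 turned. All but Shmt, rdgB and Trx2 kept it without each single array.

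The count with DOX was 359 higher and 327 lower with the control groups exchanged, 306 and 386 against the mean of both control groups, 466 higher with only the 8 arrays of the contrast, 354 and 1412 with each array centred on its median, 2144 and 1870 with array weights, 1495 and 1459 at an adjusted p under 0.05, 69 and 330 at a fold of at least 1.5, 21 and 78 at a fold of at least 2, and 112 and 195 with the spike-in signal as a covariate. It ranged from 265 to 1761 higher and from 523 to 1454 lower with each array left out. Leaving out control +DOX replicates 1 to 3 together, chosen after seeing the data, gave 42 and 100 with DOX and 517 and 533 without DOX. It leaves 1 array in the control +DOX group, assumed to vary like the other groups, so the count with DOX drops with the lost replication.

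The replicate numbers are shared by the groups, but deviations of same-numbered arrays correlated at -0.105 to 0.041 without DOX and no MnSOD -DOX array correlated best with its own number, so they were taken to share only a number. Between the groups with DOX at day 73 the correlations were -0.153 to 0.361, the highest for replicate 1. With the replicate number as a block, 412 were higher and 414 lower without DOX and 740 and 879 with DOX, and Sod2 was at 0.85. The number of arrays, 4 a group, limits the precision of all these values.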
